A study of Mus musculus with 10 samples.

Results

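The E2F family of transcription factors, the retinoblastoma gene Rb1 and the E2F partner gene Tfdp1 were followed through mouse spermatogenesis in nuclei whose RNA and accessible chromatin were read together. The members were E2f1 to E2f8, Rb1 and Tfdp1, chosen by name. All 10 were found in the scRNA-seq matrix of 28125 genes and in the scATAC-seq matrix of 30670 genes. Nuclei came from whole testes of C57BL/6J wild-type (WT) mice at 11, 17 and 25 dpp (days postpartum) and of adults aged 8 weeks, either Cre/+ or Nfya-CKO. Both adult groups carry Stra8-Cre, a Cre cassette knocked in before the stop codon of Stra8. It is active in male germ cells, so that somatic cells of Nfya-CKO testes should keep Nfya. Only the Nfya-CKO mice also carry the floxed Nfya alleles (Nfya fl/fl), from which Cre removes part of the gene. Each condition was 1 library per assay, so no difference between conditions has a replicate check, and no p-value is given.

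E2F proteins bind DNA together with a DP partner, such as the product of Tfdp1, and drive the genes needed for DNA replication. The retinoblastoma protein RB1 and its relatives bind E2Fs and silence these genes until cyclin-dependent kinases release them in late G1. E2F1, E2F2 and E2F3 are known mainly as activators, E2F4 and E2F5 as partners of the RB relatives in resting cells, E2F6 as a repressor within a Polycomb complex, and E2F7 and E2F8 as repressors that act without a DP partner. In the testis, preleptotene spermatocytes (pL) carry out the last round of DNA replication before meiotic prophase I, and E2F6 is known to silence germline genes in somatic cells.

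The matrices hold 13 populations named by the study's own annotation, pooled over libraries. Of these, 9 are germ cell populations in order of development: undifferentiated (undiff. SpG) and differentiating (diff. SpG) spermatogonia, pL, early leptotene to zygotene (eL/L/Z), leptotene to early pachytene (L/Z/eP), middle to late pachytene (mP/lP), diplotene (D), and round (RS) and elongating (ES) spermatids. The others are spermatogonia of the library labelled Nfya-CKO, Sertoli cells, other somatic cells and 99 cells of unknown type. RNA is given as mean UMIs (unique molecular identifiers, 1 per captured transcript) per 10000 UMIs of a cell. Intervals are 95% Poisson intervals that cover counting error only, and not the spread between animals. Below, "2-fold" and log2 ratios refer to values after adding 0.1 for RNA and 1 for scATAC-seq, which shrinks the ratios of genes with little RNA or signal, and members that pass 2-fold only without the added value are named beside each count.

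Several properties of the libraries bear on every value below. Libraries held between 3746 and 18039 scRNA-seq cells and between 30227701 and 64967271 UMIs. Library and stage went together: 92.0% of undiff. SpG and 99.7% of pL cells came from the juvenile libraries, against 15.3% of diff. SpG and 0.251% of ES. Of 39716 scRNA-seq cell barcodes, 5036 (12.7%) occurred in more than 1 library, against 0.286% of 342825 in scATAC-seq. The Cre/+ and Nfya-CKO libraries shared 3813 barcodes, and 74.2% of Nfya-CKO cells had a barcode found in another library. This held for 49.1% of diff. SpG, 32.5% of undiff. SpG, 19.0% of pL and 35.8% of the Nfya-CKO spermatogonia. The pooled matrices do not allow a value without these cells, and their part in the results was not tested.

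Markers followed the labels in part. Zbtb16 was highest in undiff. SpG (8.74 per 10000), Stra8 in pL (4.86) and Prm1 in ES (40.8). Rec8, also a marker of pL, was highest in RS (1.11) and lower in pL (0.298) than in diff. SpG (0.457). Meiosin, another marker of pL, was not in the matrix. Gfra1 (1.2 against 1.08 in undiff. SpG) and Etv5 (1.11 against 0.760), also markers of undiff. SpG, were highest in Nfya-CKO spermatogonia, as was Sohlh1 (1.90). Kit, a marker of diff. SpG, was higher in pL (2.09) than there (1.56). Diff. SpG also held spermatid transcripts: the 3 elongating spermatid markers Prm1, Prm2 and Tnp1 summed to 6.67 there, against 0.312 in undiff. SpG and 0.00834 in pL. The 3 Leydig cell markers Cyp11a1, Star and Insl3 summed to 41.6 in Nfya-CKO spermatogonia, against 0.173 in undiff. SpG and 186 in other somatic cells. Nfya itself was higher in the library labelled Nfya-CKO than in control spermatogonia (1.11 against 0.456 in undiff. SpG and 0.667 in diff. SpG). The matrix gives 1 value per gene and does not tell the deleted exons from the rest.

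Promoter sequences are shown first, since several E2F genes are themselves known E2F targets and Nfya, the gene targeted in the Nfya-CKO mice, encodes a subunit of NF-Y, the factor that binds the CCAAT box. RefSeq windows (GRCm38.p6, from 250 bases before to 50 bases after an annotated start) were held for 7 of the 10 members, in 10 windows. Motifs were searched on both strands, as TTTNNCGC for E2F and CCAAT for NF-Y. The E2F letters were in 5 of the 10 windows, those of 4 genes (E2f2, E2f3, E2f7 and Tfdp1), and in 5.17% of 32851 windows of all genes. The windows of Tfdp1 overlap and share 1 match. The CCAAT letters were also in 5 of the 10 windows, those of 4 genes (E2f2, E2f3, E2f7 and E2f8), and in 37.4% of all windows. No E2F match overlapped a CCAAT match. The 3 genes with both are printed 5′ to 3′ on the strand of the gene, up to the base before the start, with matches on either strand in capitals. They lie at chr4:136172024-136172273 (plus strand), chr13:29986064-29986313 (minus strand) and chr10:110745189-110745438 (plus strand).
E2f2 upstream: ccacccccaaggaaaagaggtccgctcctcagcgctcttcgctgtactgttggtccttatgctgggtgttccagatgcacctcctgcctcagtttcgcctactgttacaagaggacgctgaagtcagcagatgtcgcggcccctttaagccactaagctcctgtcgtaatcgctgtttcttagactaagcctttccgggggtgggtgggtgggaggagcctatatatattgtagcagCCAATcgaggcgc
E2f3 upstream: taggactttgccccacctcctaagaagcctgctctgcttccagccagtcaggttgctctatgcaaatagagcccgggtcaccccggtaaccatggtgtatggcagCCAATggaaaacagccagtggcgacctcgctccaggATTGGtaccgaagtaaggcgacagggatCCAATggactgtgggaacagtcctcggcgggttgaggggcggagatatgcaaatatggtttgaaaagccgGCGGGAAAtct
E2f7 upstream: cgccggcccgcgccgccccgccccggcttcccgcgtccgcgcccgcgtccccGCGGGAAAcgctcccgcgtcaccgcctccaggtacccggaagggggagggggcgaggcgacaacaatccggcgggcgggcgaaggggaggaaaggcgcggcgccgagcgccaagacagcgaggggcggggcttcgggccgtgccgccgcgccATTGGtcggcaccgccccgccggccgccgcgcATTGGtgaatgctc
The E2F letters of E2f2 fell after the start, at positions 5 and 40 when the start is counted as 1. The second of these is shown with its surroundings, from position 21 to 50 (chr4:136172294-136172323).
E2f2 site: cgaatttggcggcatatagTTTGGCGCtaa
The CCAAT box of E2f2 began 13 bases before this start. A second E2f2 window, from a start further downstream, held CCAAT at 174, 133 and 53 bases before its start and no E2F letters. The printed E2f3 window had CCAAT at 145 and 81 bases before the start, its reverse at 109, and the E2F letters on the reverse strand at 11. E2f7 had reversed CCAAT boxes at 46 and 14 bases before the start, and the E2F letters at 198. E2f8 had 1 reversed CCAAT at 112, and Tfdp1 had 1 E2F match, at 43 or 96 according to the start used. The windows of E2f1 and E2f6 and the other E2f3 window held neither set of letters. The E2f1 window starts from a RefSeq start at position 154569426 of chromosome 2, inside the GENCODE gene, which begins at 154569892. A match is a run of letters and not evidence of binding.

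RNA of 8 of the 10 members was highest in pL among the 9 germ cell populations: E2f1, E2f2, E2f3, E2f4, E2f5, E2f7, E2f8 and Tfdp1. Of the 15250 genes whose mean over populations reached 0.05 per 10000, 17.8% were highest in pL. The remaining 2, E2f6 and Rb1, were highest in undiff. SpG, as were 19.2% of all genes. For 6 of the 8, the level in pL was above the next highest population by more than counting error. For E2f7 (0.70 in pL and 0.628 in diff. SpG) and Tfdp1 (1.12 in pL and 1.09 in undiff. SpG), it was not. From pL to mP/lP, every member was lower, and 8 of 10 were at least 2-fold lower after adding 0.1, against 19.2% of all genes. E2f8 joined them without the added value (ratio 0.450). Centred on the median log2 ratio of all genes (-0.16), 6 were, since E2f4 (-0.89) and Rb1 (-0.96) then fell short.

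**Figure D1:**
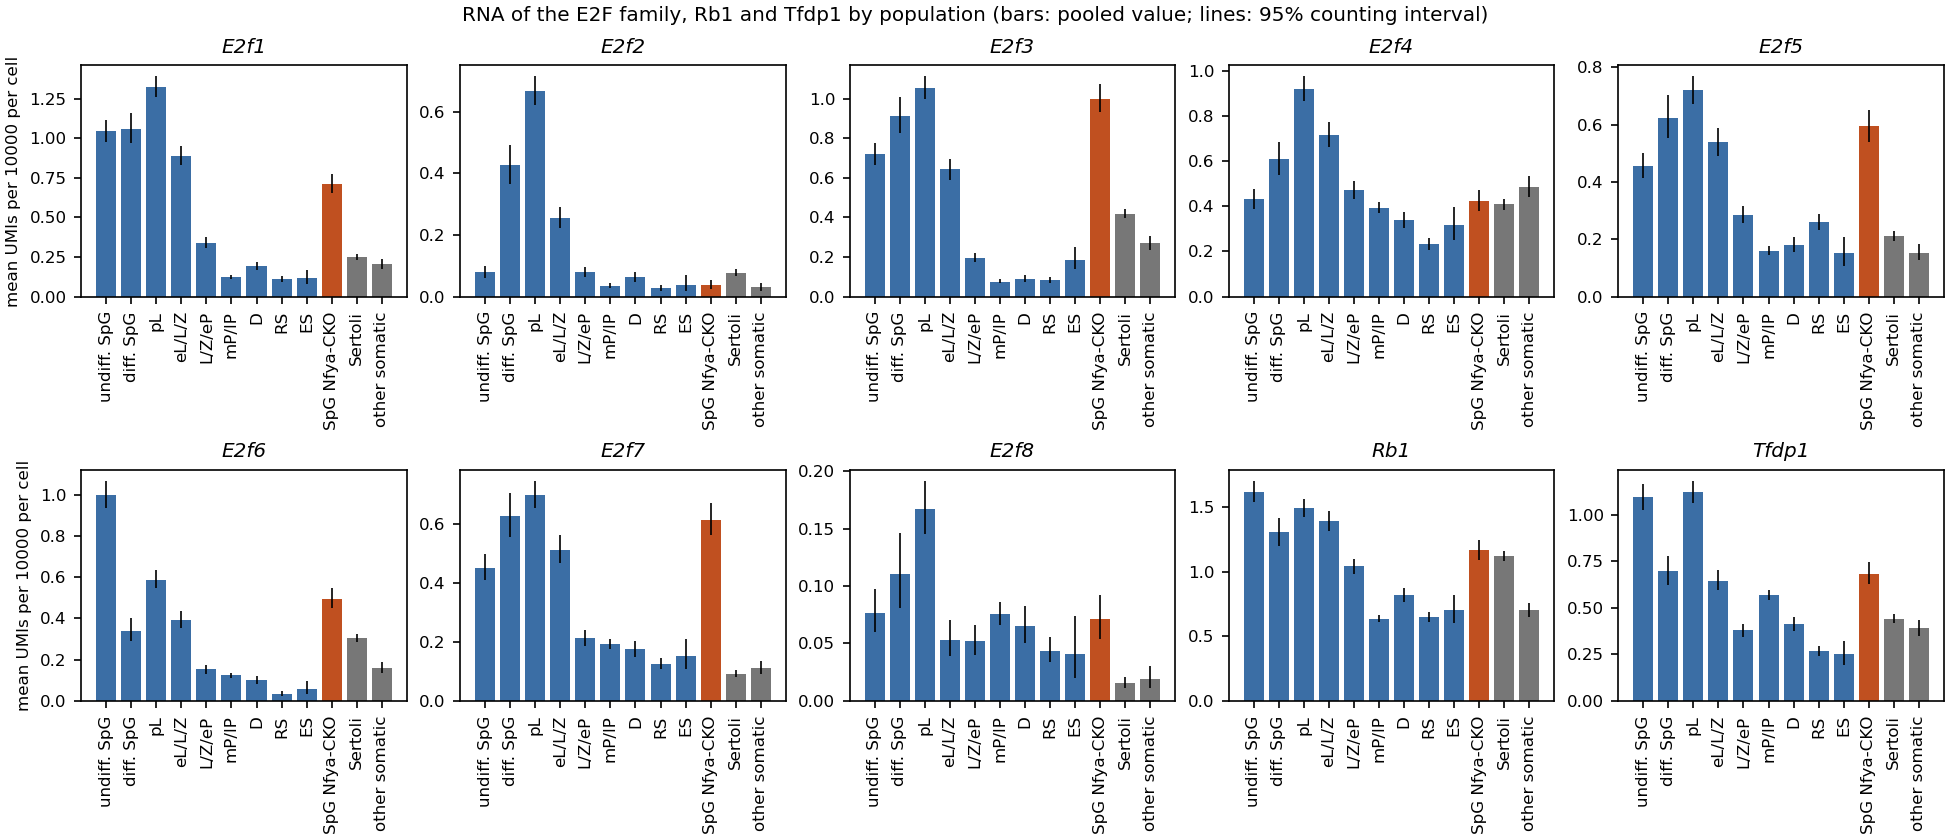
RNA of each member (mean UMIs per 10000 per cell, y axes from 0, a scale per gene) in 9 germ cell populations (blue), spermatogonia labelled Nfya-CKO (orange), Sertoli cells and other somatic cells (grey). Bars are pooled values and lines 95% counting intervals. E2f2 stands at 0.668 in pL and at 0.0781 in undiff. SpG, while Rb1 stays between 0.635 and 1.62.

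Among the activators, E2f1 (chr2:154559407-154569892, minus strand) was already high in spermatogonia. Its level was 1.04 in undiff. SpG, 1.06 in diff. SpG, 1.33 in pL, 0.890 in eL/L/Z, 0.340 in L/Z/eP, 0.121 in mP/lP, 0.192 in D, 0.109 in RS and 0.116 in ES. Both spermatogonial populations overlapped in their counting intervals, and the largest drop in level between neighbouring stages came after eL/L/Z. The level in pL was 1.27 times that in undiff. SpG and that in mP/lP 0.0910 times that in pL.

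E2f2 (chr4:136172394-136196057, plus strand) had the narrowest pattern. It measured 0.0781 in undiff. SpG, 0.426 in diff. SpG, 0.668 in pL, 0.255 in eL/L/Z, 0.0782 in L/Z/eP, 0.0351 in mP/lP, 0.0624 in D, 0.0268 in RS and 0.0369 in ES. It was thus low in the stem-like spermatogonia, high in 3 consecutive populations and low again from L/Z/eP on. The ratio of pL to undiff. SpG was 8.55, from an estimated 814 and 69.4 UMIs. On the log2 scale with 0.1 added to each value, this was 2.11 (interval 1.93 to 2.28), more than 99.9% of all genes.

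E2f3 (chr13:29906575-29986063, minus strand) was more graded, with 0.719 in undiff. SpG, 0.914 in diff. SpG and 1.05 in pL. It then measured 0.642 in eL/L/Z, 0.196 in L/Z/eP, 0.0758 in mP/lP, 0.0895 in D, 0.0815 in RS and 0.187 in ES. The value in ES was above those of mP/lP, D and RS by more than counting error, from an estimated 46.7 UMIs. Across the 3 activators, log2 ratios of mP/lP over pL were -2.69, -2.51 and -2.71, all within the lowest 1.2% of genes.

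The pocket protein partners changed less. E2f4 (chr8:105297663-105305370, plus strand) measured 0.430 in undiff. SpG, 0.607 in diff. SpG, 0.921 in pL, 0.718 in eL/L/Z, 0.471 in L/Z/eP, 0.394 in mP/lP, 0.339 in D, 0.232 in RS and 0.318 in ES. Its level in mP/lP was 0.428 times that in pL, close to the level in undiff. SpG. E2f5 (chr3:14578641-14606309, plus strand) measured 0.455, 0.624, 0.719, 0.538, 0.285, 0.160, 0.179, 0.259 and 0.152 in the same order. It was the only member higher in RS than in D, with a log2 ratio of 0.36 (interval 0.19 to 0.53).

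E2f6 (chr12:16810963-16839742, plus strand) differed from the other E2Fs in where it was highest. It measured 1.0 in undiff. SpG, 0.341 in diff. SpG, 0.589 in pL, 0.391 in eL/L/Z, 0.152 in L/Z/eP, 0.124 in mP/lP, 0.102 in D, 0.0344 in RS and 0.0569 in ES. From undiff. SpG to RS this was a 29.1-fold range, the widest of the members. Its log2 ratio of pL over undiff. SpG was -0.68 (interval -0.80 to -0.55), and that of Rb1 -0.11, the only negative values among the members.

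The atypical repressors were unequal in level. E2f7 (chr10:110745439-110787384, plus strand) measured 0.452 in undiff. SpG, 0.628 in diff. SpG, 0.70 in pL, 0.513 in eL/L/Z, 0.213 in L/Z/eP, 0.192 in mP/lP, 0.175 in D, 0.125 in RS and 0.154 in ES. E2f8 (chr7:48866429-48881596, minus strand) was low throughout, with 0.0769, 0.110, 0.167, 0.0530, 0.0517, 0.0753, 0.0651, 0.0436 and 0.0404 in the same order. It peaked in pL from an estimated 204 UMIs, and among the other 8 populations each neighbour in rank was within counting error of the next. In the 99 cells of unknown type E2f8 was at 0.300, but from an estimated 6.87 UMIs (interval 0.119 to 0.622). Those cells carried the endothelial marker Pecam1 at 5.31.

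Rb1 (chr14:73183673-73325822, minus strand) was the steadiest. It measured 1.62 in undiff. SpG, 1.31 in diff. SpG, 1.5 in pL, 1.39 in eL/L/Z, 1.04 in L/Z/eP, 0.635 in mP/lP, 0.820 in D, 0.648 in RS and 0.707 in ES, a 2.55-fold range. Tfdp1 (chr8:13338751-13378448, plus strand) was nearly equal in undiff. SpG (1.09) and pL (1.12), with a dip in diff. SpG (0.697). It then measured 0.646 in eL/L/Z, 0.378 in L/Z/eP, 0.569 in mP/lP, 0.410 in D, 0.268 in RS and 0.252 in ES, and its level in mP/lP was above that in L/Z/eP by more than counting error. Genes that overlap members in the GENCODE annotation and were also in the matrix are 1810022K09Rik at E2f5, 1700020G17Rik at E2f7, and Rcbtb2, Gm17233 and Lpar6 at Rb1. Use of strand in counting is not given in the sources used here, so their reads could be shared.

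Between pL and undiff. SpG, E2f2 was the 1 member at least 2-fold higher on the log2 scale with 0.1 added, against 2.42% of all genes. No member was at least 2-fold lower, against 6.19%. E2f4 (2.14-fold) and E2f8 (2.18-fold) were past a ratio of 2 without the added value. The members' median log2 ratio was 0.51, against -0.05 over all genes. Between mP/lP and pL, no member was at least 2-fold higher (15.6% of all genes) and 8 were at least 2-fold lower (19.2%). The 2 others, E2f8 and Tfdp1, had ratios of 0.450 and 0.507 without the added value and log2 ratios of -0.61 and -0.87. The median was -1.54, against -0.16. Between RS and D, no member was 2-fold apart in either direction after adding 0.1, against 10.6% of all genes higher and 3.34% lower. Without the added value, E2f6 (0.0344 against 0.102, ratio 0.339) and E2f2 (0.0268 against 0.0624, ratio 0.429) were past 2-fold lower.

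The other pocket proteins and the second DP gene did not share one pattern. Rbl1, which encodes p107, was at 0.818 in mP/lP, 0.805 in L/Z/eP and 0.756 in D, against 0.457 in undiff. SpG and 0.733 in pL. Rbl2, which encodes p130, was low in pL (0.0719) and highest in RS (0.954) and ES (0.845). Its log2 ratio of RS over D was 1.38. Tfdp2 was highest in pL (1.47) and stood at 0.345 in mP/lP, a log2 ratio of -1.82.

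Genes that E2Fs are known to switch on for S phase followed the activators in outline. Of 24 such genes, 16 were highest in pL, 4 in diff. SpG, 3 in undiff. SpG and 1 in mP/lP. Over all genes, the shares highest in these populations were 17.8%, 5.66%, 19.2% and 11.3%, in the same order. At least 2-fold higher in pL than in undiff. SpG were 3 of 24 (2.42% of all genes), with none at least 2-fold lower (6.19%). These were Rrm2 (ribonucleotide reductase subunit, 0.213 to 0.987), Ccne2 (cyclin E2, 0.159 to 0.744) and Pcna (polymerase clamp, 0.569 to 1.24). The lowest ratios were those of Chaf1b (-0.94 on the log2 scale), Pola1 (-0.79) and Cdt1 (-0.30). From pL to mP/lP, 14 of 24 were at least 2-fold lower (19.2% of all genes) and none higher (15.6%). The median log2 ratio was -1.74, against -0.16 over all genes. Without the added value, Tk1, Ccne1, Ccne2 and Pola1 were also past 2-fold lower. The lowest log2 ratios were those of Ccna2 (cyclin A2, -2.84), Mcm2 (-2.79) and Mcm4 (-2.57), and the highest those of Cdk1 (0.30) and Mcm7 (0.21).

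**Figure D2:**
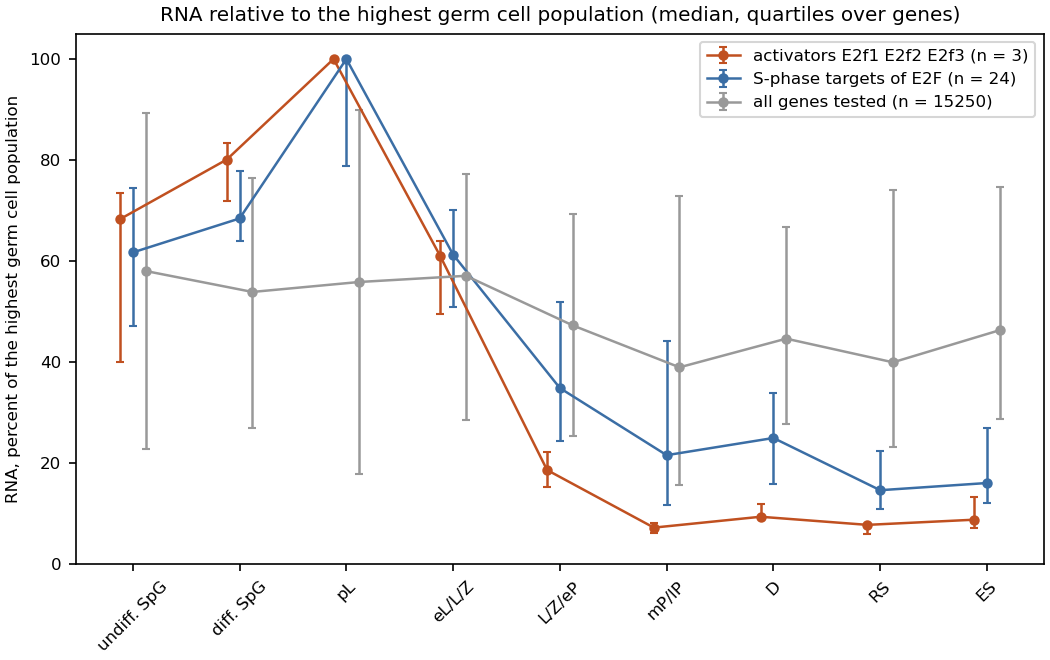
RNA in each germ cell population as a percent of the highest of the 9 populations, as the median (points) and quartiles (bars) over genes, for E2f1, E2f2 and E2f3 (n = 3), S-phase targets (n = 24) and all genes tested (n = 15250). The medians of the activators and the targets are 100% in pL and 7.20% and 21.5% in mP/lP, against 55.8% and 38.9% over all genes.

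Among regulators that act upstream of RB1, the D-type cyclins differed between populations by more than Rb1 did. Of 13 cyclins, kinases and inhibitors of G1, 1 was at least 2-fold higher in pL than in undiff. SpG (2.42% of all genes) and 5 were lower (6.19%). The higher one was Ccnd1 (cyclin D1), at 1.48 in undiff. SpG, 2.62 in diff. SpG and 4.39 in pL. Its relative Ccnd2 went the other way, from 10.8 in undiff. SpG to 0.579 in diff. SpG and 1.24 in pL. Ccnd3 (2.52 to 0.649) and the inhibitor Cdkn1b (1.21 to 0.247) were lower as well. Without the added value, the inhibitors Cdkn2c (0.0613 to 0.211) and Cdkn2d (0.117 to 0.270) were also past 2-fold higher. In mP/lP, 1 of the 13 was at least 2-fold higher than in pL (15.6% of all genes) and 5 were lower (19.2%). The lower ones were Ccnd1 (4.39 to 0.120, log2 ratio -4.35), Ccnd2 (-2.43), the inhibitor Cdkn2a (-1.83), Cdk6 (-1.47) and Ccnd3 (-1.27). The highest ratio over pL was that of the inhibitor Cdkn2c (0.211 to 0.618, log2 ratio 1.21), followed by Cdkn2d (0.270 to 0.572) and Cdk2 (0.605 to 0.894). Without the added value, Cdkn2d was also past 2-fold higher, and Cdkn1a, Cdkn1b, Cdkn1c and Cdkn2b were past 2-fold lower.

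The MuvB subunits and MYB genes, which form the DREAM complex or its activating counterpart, held 0 of 7 genes 2-fold apart between undiff. SpG and pL. Over all genes, 2.42% were higher in pL and 6.19% lower. Mybl1, which encodes the meiotic regulator A-MYB, was the 1 at least 2-fold higher in mP/lP than in pL (0.287 to 1.51), against 15.6% of all genes. None was at least 2-fold lower, against 19.2%, though Lin54 (1.23 to 0.608) was past 2-fold without the added value. Of 10 genes of the Polycomb complex that holds E2F6, none was at least 2-fold higher in pL than in undiff. SpG (2.42% of all genes). At least 2-fold lower was 1 (6.19%), Pcgf6 (0.736 to 0.137). In mP/lP, 2 of the 10 were at least 2-fold higher than in pL (15.6% of all genes), Pcgf6 and Ring1, with log2 ratios of 2.92 and 1.32. Another 2 were lower (19.2%), Rybp (-1.59) and Cbx3 (-1.27). Without the added value, Mga and Hdac2 were also past 2-fold lower.

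Sertoli cells lay mostly below undiff. SpG. Of the members, 4 were at least 2-fold lower in Sertoli cells (16.9% of all genes) and none higher (10.1%). This was counted after adding 0.1, and centred on the median log2 ratio of all genes (-0.29) Tfdp1 fell short (-0.85), which left 3. E2f1 measured 0.247 against 1.04, E2f6 0.306 against 1.0, E2f7 0.0915 against 0.452 and Tfdp1 0.440 against 1.09. Without the added value, E2f8 (0.0153 against 0.0769, ratio 0.199) and E2f5 (0.212 against 0.455, ratio 0.465) were also past 2-fold lower. E2f2 (0.0780 against 0.0781) and E2f4 (0.408 against 0.430) were within counting error of undiff. SpG. E2f6 RNA was therefore lower in this somatic population than in undiff. SpG, but above its level in RS (0.0344). The germline genes that E2F6 is known to repress, Stag3, Smc1b, Slc25a31, Tuba3a and Tuba3b, were all at least 2-fold lower in Sertoli cells, with log2 ratios of -1.87 to -1.54. Tuba3a and Tuba3b are near-identical copies, so their reads may be split wrongly. In other somatic cells, E2f6 was at 0.161 and Rb1 at 0.702. There, Tuba3b was above its level in undiff. SpG (1.97 against 1.44), and the other 4 of these germline genes were below theirs, such as Smc1b (1.57 against 3.38). Germ cell transcripts were also present there: the 3 elongating spermatid markers summed to 2.74, against 0.312 in undiff. SpG and 0.00562 in Sertoli cells, and Piwil1, a pachytene marker, was at 1.57. Of the other somatic cells, 70.1% had a barcode found in another library, and the part of either in these values was not tested.

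In the spermatogonia labelled Nfya-CKO, no member was 2-fold apart from undiff. SpG after adding 0.1, against 4.09% of all genes higher and 3.08% lower. The members' median log2 ratio was -0.21, against 0.01 over all genes. Without the added value, E2f2 (ratio 0.473) and E2f6 (ratio 0.496) were past 2-fold lower. On the scale with 0.1 added, E2f6 came closest, at 0.497 against 1.0, with a log2 ratio of -0.89 (interval -1.03 to -0.74), lower than in all but 4.25% of genes. Tfdp1 (0.683 against 1.09, log2 ratio -0.61), E2f1 (0.710 against 1.04, -0.50), Rb1 (1.17 against 1.62, -0.44) and E2f2 (0.0370 against 0.0781, -0.38) were lower beyond counting error. E2f3 (1.0 against 0.719, log2 ratio 0.43), E2f7 (0.615 against 0.452, 0.37) and E2f5 (0.593 against 0.455, 0.32) were higher beyond it. E2f4 (0.423 against 0.430) and E2f8 (0.0709 against 0.0769) were within it.

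The choice of control decided several of these. Against diff. SpG, E2f2 was at 0.0370 and 0.426, a log2 ratio of -1.94 (interval -2.16 to -1.71), the only member past 2-fold. The share of all genes past 2-fold was not counted for this control, so this count has no background beside it. E2f6 turned from lower to higher (0.497 against 0.341, log2 ratio 0.44), and E2f3, E2f5, E2f7 and Tfdp1 were within counting error. E2f4 (log2 ratio -0.44, interval -0.63 to -0.24) and E2f8 (-0.30, interval -0.57 to -0.03), within counting error of undiff. SpG, were lower than diff. SpG beyond it. E2f1 was lower by nearly the same amount against both, with log2 ratios of -0.50 and -0.52, and Rb1 was lower against both beyond counting error (-0.44 and -0.15). Undiff. SpG are mostly juvenile and the library labelled Nfya-CKO is adult, so genotype and age cannot be told apart in that comparison. Diff. SpG are 84.5% Cre/+ cells, but carry the spermatid transcripts given above, and the Nfya-CKO spermatogonia carry Leydig transcripts. Their part in these differences was not tested.

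**Figure D3:**
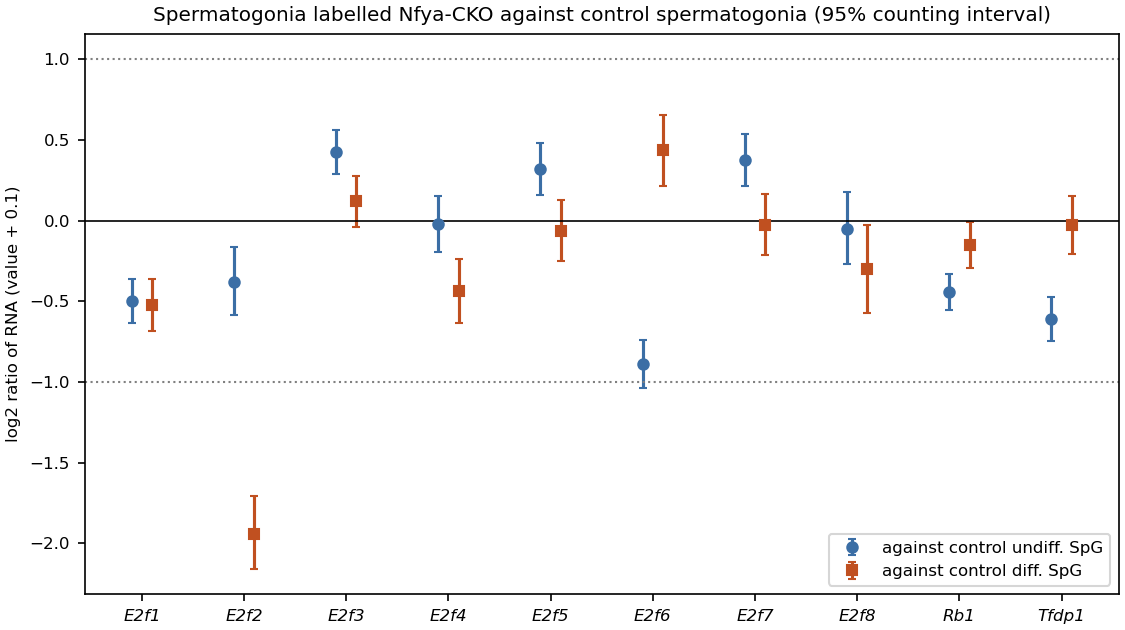
Log2 ratio of RNA (value + 0.1) in spermatogonia labelled Nfya-CKO over control undiff. SpG (blue circles) and over control diff. SpG (orange squares), with 95% counting intervals; dotted lines mark 2-fold. E2f2 lies at -0.38 against the first control and at -1.94 against the second, and E2f6 changes sign from -0.89 to 0.44.

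After adding 0.1, none of the 24 S-phase targets in the same spermatogonia was 2-fold apart from undiff. SpG. Over all genes, 4.09% were higher and 3.08% lower. The targets had a median log2 ratio of -0.08, against 0.01 over all genes. The lowest were Pcna (0.239 against 0.569), Mcm3 (0.711 against 1.21) and Uhrf1 (0.891 against 1.35), and the highest Tk1 (0.214 against 0.0853), Mcm2 (1.51 against 0.855) and Mcm7 (1.49 against 0.847). Of these 6, Pcna and Tk1 were past 2-fold without the added value, as was Ccne1 (0.247 against 0.117). Among the 13 G1 regulators, Ccnd2 (4.67 against 10.8) and Cdkn1b (0.422 against 1.21) were at least 2-fold lower and Cdk2 (1.23 against 0.512) higher. Without the added value, Cdkn2c (0.0180 against 0.0613) was also past 2-fold lower and Cdkn1a (0.262 against 0.113) higher. Rrm2, the gene most like E2f2 in pattern by Pearson's r though not among the first 3 by Spearman's rho, was at 0.115, against 0.213 in undiff. SpG and 0.716 in diff. SpG.

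Accessibility of the members varied less than their RNA. The scATAC-seq values are means per gene scaled to a sum of 1000000 per population, over a region per gene. The study defines promoter accessibility by coverage close to the start site, but whether the matrix was made so is not given in the sources used here. They carry no counting interval, because the fragments behind each value are unknown. E2f2 had the widest range among germ cells, with 20.1 in undiff. SpG, 27.3 in diff. SpG, 37.3 in pL, 20.2 in eL/L/Z, 9.03 in L/Z/eP, 5.94 in mP/lP, 9.08 in D, 10.4 in RS and 9.14 in ES. This 6.28-fold range followed its RNA, with a Pearson's r of 0.90 over the 9 populations. E2f1 went from 84.2 in pL to 33.4 in mP/lP and E2f3 from 126 to 55.2, with r of 0.90 and 0.91. E2f8 was highest in pL as well (65.6), as was E2f6 (36.4), whose RNA was highest in undiff. SpG, and Tfdp1 (51.5).

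E2f5 (44.3) and E2f7 (43.2) had their highest signal in diff. SpG, and Rb1 in undiff. SpG (43.6) with pL at 43.4. E2f4 stood apart, with its highest germ cell signal in ES (38.9), a population of 124 scATAC-seq cells, and more still in Sertoli cells (43.4). The r between its RNA and signal was 0.23, close to the median of 0.26 over 10060 genes, of which 32.7% were above 0.5. The points share libraries and depth, and no test is given.

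The 13 mitochondrial genes took between 31.2% (pL) and 63.8% (L/Z/eP) of the germ cell signal, which lowers every nuclear gene in L/Z/eP and mP/lP. Scaled without them, E2f1 was highest in diff. SpG (127), E2f3 and E2f5 in L/Z/eP (216 and 68.9), and the other 7 in the same population as before. E2f2 kept its peak in pL (54.3) and its lowest value in mP/lP (15.0). The r of E2f3 fell to 0.57 and that of E2f7 from 0.79 to 0.40, while that of E2f8 rose from 0.79 to 0.93. That of E2f4 fell from 0.23 to 0.03 and was then no longer close to the median. Over the 10060 genes, the median rose from 0.26 to 0.35, with 39.5% above 0.5.

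**Figure D4:**
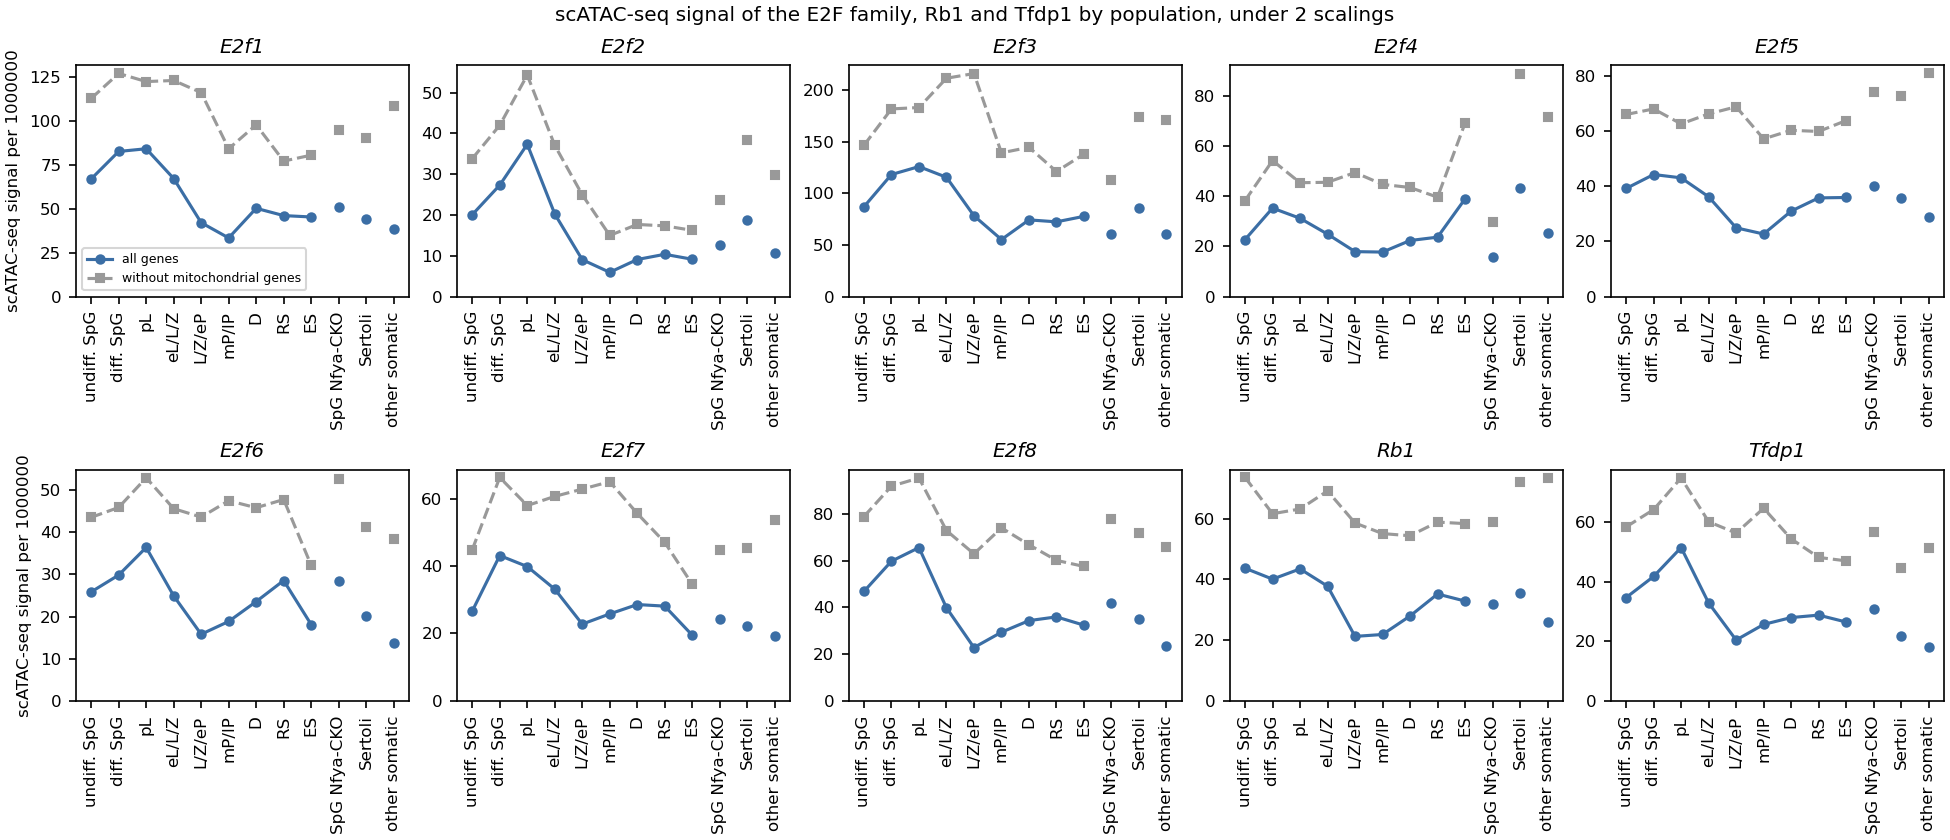
scATAC-seq signal (sum of 1000000 per population) of each member by population, scaled over all genes (blue) and without mitochondrial genes (grey), y axes from 0 with a scale per gene. Lines join the 9 germ cell populations. E2f2 peaks in pL under both scalings (37.3 and 54.3), while the peak of E2f3 moves from pL (126) to L/Z/eP (216).

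Between mP/lP and undiff. SpG, the signal of 1 member was at least 2-fold lower, E2f2 (5.94 against 20.1), against 22.5% of all genes, and none was higher, against 2.49%. E2f1 (33.4 against 67.0) and Rb1 (21.8 against 43.6) were near 2-fold, with log2 ratios of -0.98 and -0.97 after adding 1; without it, E2f1 was just past 2-fold (ratio 0.498). Without mitochondrial genes these ratios were 0.746 and 0.749 on the linear scale, that of E2f2 was 0.443, and E2f4, E2f6, E2f7 and Tfdp1 were above 1. In the library labelled Nfya-CKO, no member was 2-fold apart from undiff. SpG, against 1.62% of all genes higher and 0.441% lower. The log2 ratios ran from -0.62 for E2f2 (12.7 against 20.1) to 0.13 for E2f6 (28.4 against 25.8), with a median of -0.28, against -0.03 over all genes. The mean TSS enrichment per cell, a measure of scATAC-seq quality, was 7.99 in these spermatogonia, the lowest of the 13 populations, against 12.7 in undiff. SpG and 15.1 in diff. SpG, and its part in these ratios was not tested. The 4 lowest after E2f2 were E2f3 (60.7 against 86.9), E2f4 (15.9 against 22.7), Rb1 (31.7 against 43.6) and E2f1 (51.1 against 67.0). Against undiff. SpG, E2f3 was lower in signal and higher in RNA, and E2f6 the reverse. Against diff. SpG, the RNA ratio of E2f6 turned (log2 ratio 0.44), and its signal ratio was -0.07, or 0.19 without mitochondrial genes. E2f2 (12.7 against 27.3, log2 ratio -1.04) and E2f4 (15.9 against 35.2, -1.10) were at least 2-fold lower in signal than in diff. SpG, but not without mitochondrial genes (-0.81 and -0.85), which took 46.0% of the signal in Nfya-CKO spermatogonia and 35.0% in diff. SpG. For this control, the share of all genes past 2-fold in signal was not counted.

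Genes with the pattern most like each member over the 9 germ cell populations were taken by Pearson's r among 10059 genes. E2f2 had Rrm2 at 0.996, Cpsf2 and Rhox13. Tfdp1 had Uhrf1, an S-phase gene, at 0.984, Hmga1 and Rsl24d1. E2f1 had Siah1b, Shroom4 and Gli3, E2f3 had Kdsr, Trmt6 and Mtss1, and E2f4 had Ell, Rint1 and Tsen34. E2f5 had Nsf, Btbd3 and Melk, E2f6 had Xpc, Rpsa and Wdr89, and E2f7 had Mob1a, Jag2 and Trnp1. E2f8 had Tmed7, Polr2d and Kbtbd7, and Rb1 had Tsc22d3, Sp4 and Tmem245. With only 9 points, high values were common: 1359 genes were above 0.9 for E2f1, 161 for E2f2 and 6 for E2f8. Between members, r had a median of 0.85 over 45 pairs, from 0.56 for E2f8 with Rb1 to 0.98 for E2f1 with Rb1.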

How the data were processed

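Per the sources, the authors aligned scRNA-seq reads to mm10 with STAR 2.7.10b and scATAC-seq reads with BWA 0.7.12, and filtered, clustered and named cells with Seurat 5.2.1 and ArchR 1.0.3, removing doublets. The authors deposited UMI and fragment counts per cell, a TSS enrichment ratio per cell, and 1 matrix per assay of natural log values per population. These were found from the values to be the log of 1 plus a mean over cells that sums to 10000. Another 22 columns were not used. The values were turned back in Python 3.11.15 (pandas 2.3.3, scipy 1.17.1, numpy 2.4.6), and the scATAC-seq values scaled to 1000000. Read as pooled counts, low values came out whole (within 0.02) in 3.78%, so each was a mean over cells, and its 95% Poisson interval used cells times the harmonic mean of their UMIs. This was tested only on counts simulated from the same Poisson model, at the depths of pL and undiff. SpG cells. Spread beyond counting error was not simulated. Log2 ratios used a pseudocount of 0.1 (RNA, genes with a mean of at least 0.05) or 1 (scATAC-seq, genes above 0 in both populations). Differences of at least 2-fold were counted by size. Named were all members, Rbl1, Rbl2 and Tfdp2, the 3 most extreme genes of a list, the 3 genes most like each member (mean of at least 0.2), and marker genes. Members, lists and tests were chosen with earlier results of these data known. Coordinates are from GENCODE vM21 and RefSeq (GRCm38, the build of mm10). Alternatives covered pseudocounts, filters, thresholds, scaling and the control population.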

Additional observations from a re-analysis of the deposited data

How the results depend on the processing

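No paired analysis was possible because each condition is 1 library per assay. The number of members highest in pL stayed at 8 under median-ratio scaling and with Nfya-CKO spermatogonia added. Counts of members 2-fold apart moved as follows, and these moves follow from the settings themselves. For pL against undiff. SpG (1 member), a pseudocount of 0.01 gave 3, a ratio of 1.5 gave 4, and a mean of at least 0.2 gave 0, since E2f2 was then left out. For mP/lP against pL (8 members), a pseudocount of 0.01 gave 9 and of 0.5 gave 3, a ratio of 1.5 gave 10 and of 3 gave 5, a mean of at least 0.2 gave 7 and centring on the median of all genes 6. For RS against D (0 members), a pseudocount of 0.01 gave 1. For Sertoli against undiff. SpG (4 members), a pseudocount of 0.01 gave 6 and of 0.5 gave 1, a ratio of 1.5 gave 7 and of 3 gave 1, and centring gave 3. For Nfya-CKO against undiff. SpG (0 members in both assays), a ratio of 1.5 gave 2 in RNA and 1 in scATAC-seq, and diff. SpG as control gave 1 and 2. Also without mitochondrial genes, chosen after seeing the data, the 2 became 0. For scATAC-seq of mP/lP against undiff. SpG (1 member), a pseudocount of 0.1 gave 2 and a ratio of 1.5 gave 6. No ratio past 2-fold on the scale with the added value changed sign under these settings, while E2f6 in Nfya-CKO spermatogonia (-0.89), past 2-fold only without it, turned to 0.44 with diff. SpG as control. Without mitochondrial genes, 6 of 10 members kept the sign of that scATAC-seq ratio. With Spearman's rho, 3 of the 30 genes most like a member were the same. E2f2 and E2f8 in ES and the unknown cells are limited by depth, and no alternative could leave out a library or the shared barcodes.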
